A study of Mus musculus with 2 samples.

Results

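The mouse mitochondrial genome carries 37 genes, all taken here because they are annotated on chromosome M. They make up 37 of the 43346 genes in the deposited tables. They comprise 13 mRNAs, 22 tRNAs and 2 rRNAs. The RNA came from the pancreas of an adult female C57BL/6J mouse of 10 weeks, with no treatment named in the labels. The labels describe 2 polyA mRNA libraries as technical replicates 1 and 2 of 1 biological sample, and say that replicate 2 was added after the first publication of the data. There is 1 group, so values are described per library. A difference between replicates 1 and 2 is a difference between libraries of the same tissue, and the time of library making cannot be told apart from any other difference between them.

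Mitochondria keep a small circular genome whose protein products all belong to the respiratory chain and ATP synthase. Both strands are transcribed as long precursors, and tRNAs that sit between the mRNAs and rRNAs are cut out, which frees the neighbouring RNAs (the tRNA punctuation model). Most mRNAs then receive short poly(A) tails, which for some of them complete the stop codon, and most have almost no untranslated ends. Pancreatic acinar cells make large amounts of secreted protein and islet beta cells couple glucose oxidation to insulin release, and both rest on mitochondrial ATP. Regions of the nuclear genome hold copies of mitochondrial DNA, named nuclear mitochondrial segments, and RNA-seq reads can match such copies as well as the mitochondrial gene.

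The annotation shows how closely the genes are packed. On the plus strand lie 28 genes, namely both rRNAs, 12 mRNAs and 14 tRNAs. The minus strand holds the other 9, which are mt-Nd6 and 8 tRNAs. Of the 30 ends of the mRNA and rRNA genes, 22 lie within 5 bases of a tRNA gene. The mRNA genes span 204 to 1824 bases and hold 31.9% to 41.1% G and C. The genes mt-Co3, mt-Nd4 and mt-Cytb end 1 base past a whole number of codons, so their annotated ends hold no complete stop codon.

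Overlaps within the 2 gene pairs known to share a bicistronic mRNA are shown because the levels of their members are compared further on. The overlap of each pair is in capitals on the plus strand of GRCm38. It covers 7 bases for mt-Nd4l and mt-Nd4 (chrM:10155-10185) and 43 bases for mt-Atp8 and mt-Atp6 (chrM:7915-7981), each with 12 bases of flank on either side.
mt-Nd4l/mt-Nd4: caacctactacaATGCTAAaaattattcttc
mt-Atp8/mt-Atp6: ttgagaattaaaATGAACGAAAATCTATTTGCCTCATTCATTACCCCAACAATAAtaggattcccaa

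The counts of 7 mRNAs turned on how reads were divided with near-identical nuclear copies. The annotation holds 7 pseudogenes on the minus strand of chromosome 1, within 4663 bases (GRCm38, chr1:24611535-24616197). They lie in the order of their mitochondrial counterparts. The block from the start of the mt-Co1 match to the end of the mt-Nd4 match takes 4653 bases on chromosome M and 4654 on chromosome 1. Of the 7 copies, 5 are identical to the mitochondrial gene over their whole length and 2 differ from it by 1 base within the aligned part. For Gm29216, the copy of mt-Co1, that part is 483 of its 492 bases and starts at its base 10. Those 2 substitutions are T3C for mt-Nd3, counted from the gene's first base, and A1066T for mt-Co1. They stand in capitals below, for mt-Nd3 (chrM:9459-9488, plus strand) against Gm28438 (chr1:24613090-24613119, minus strand), and for mt-Co1 (chrM:6390-6419, plus strand) against Gm29216 (chr1:24616159-24616188, minus strand).
mt-Nd3: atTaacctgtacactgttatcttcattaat
Gm28438: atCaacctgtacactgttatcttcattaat
mt-Co1: ggaAttgttttatccaactcatcccttgac
Gm29216: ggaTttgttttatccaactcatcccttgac

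For 4 of the identical copies, only the ends of the annotated genes differ. The last 24 bases of 4 mitochondrial genes are shown with the part past the end of the annotated copy in capitals. These ends are those of mt-Co2 (chrM:7673-7696), mt-Atp6 (chrM:8584-8607), mt-Nd4l (chrM:10150-10173) and mt-Co3 (chrM:9367-9390), on the plus strand, and every other base of the genes is shared with the copy. The counterparts end at chr1:24614885-24614905 for Gm28661, chr1:24613974-24613994 for Gm10925, chr1:24612407-24612427 for Gm10222 and chr1:24613189-24613211 for Gm28437, all on the minus strand.
mt-Co2: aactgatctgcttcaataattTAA
Gm28661: aactgatctgcttcaataatt
mt-Atp6: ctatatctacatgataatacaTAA
Gm10925: ctatatctacatgataataca
mt-Nd4l: aatctcaacctactacaatgcTAA
Gm10222: aatctcaacctactacaatgc
mt-Co3: tctccatttattgatgaggatctT
Gm28437: tctccatttattgatgaggatct

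The mitochondrial genes held 17.6% of all expected counts in replicate 1 (exact Clopper-Pearson 95% interval 17.60% to 17.65%) and 3.17% in replicate 2 (3.16% to 3.18%). These shares are 1663899 of 9441559 counts and 310481 of 9797569 counts. The mean share was 10.4% ± 10.2 (SD, n = 2 technical libraries), so the spread between libraries was nearly as large as the mean. Intervals here and below cover counting error only, since PCR copies are not independent molecules. Both libraries are labelled as technical replicates of the same biological sample, and the source of the difference between their shares was not tested. A level in a bulk library also cannot tell the number of mitochondria-rich cells apart from mitochondrial RNA per cell.

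Replicate 2 also held far larger shares of 3 nuclear genes. Gm42418, a nuclear gene model that overlaps a ribosomal RNA repeat, took 16.9% of the counts in replicate 1 and 42.8% in replicate 2. Lars2 went from 0.763% to 5.13% and Gm26917 from 0.00652% to 0.0701%. These 3 genes were left out of a second total because earlier results had shown them to differ between the libraries, and their part in the mitochondrial difference beyond that total was not tested. Against the total of all other genes, which also leaves out the mitochondrial genes and their copies, the mitochondrial genes had 28.7 counts per 100 in replicate 1 and 6.68 per 100 in replicate 2. The gap between the libraries was therefore 4.30-fold on this scale, against 5.56-fold as a share of all counts. Both gaps were smaller with the counts of the nuclear copies added. Per 100 counts of the other genes the values were then 34.0 and 9.68, a 3.51-fold gap. As a share of all counts they were 20.9% and 4.59%, a 4.55-fold gap. Defining transcripts of exocrine and endocrine pancreas were present in both libraries. The 4 acinar markers summed to 33942 and 32024 TPM, and 2 of 4 were higher in replicate 2 (Cpa1 at 17943 and 12130 TPM, Prss2 at 10787 and 14896 TPM). The 4 islet markers summed to 20753 and 22468 TPM, also with 2 of 4 higher (Ins2 at 13969 and 17977 TPM, Gcg at 4235 and 1566 TPM). Erythroid markers moved more, from a sum of 939.2 to 2150 TPM, with 2 of 3 higher (Hbb-bs at 578.3 and 1291 TPM, Hba-a1 at 352.6 and 853.8 TPM), and their part in the mitochondrial difference was not tested. The duct, adipocyte and muscle lists summed to 40.4 and 31.3 TPM, 273.2 and 162.3 TPM, and 115.3 and 75.4 TPM. The hepatocyte marker Alb (0.610 and 0.560 TPM) and the muscle marker Myh6 (0 and 0.180 TPM) were at or near 0.

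The RNA classes differed in how much they took. The 13 mRNAs held 14.9% of counts in replicate 1 and 2.29% in replicate 2, and the 2 rRNAs held 2.70% and 0.877%. On the TPM scale, which corrects counts for the length a fragment can start in and sums to the same total in each library, all 37 genes together took 26.7% and 5.05%. The 11 nuclear copies added 3.24% and 1.42% of counts. Nearly all of this lay in the 7 copies on chromosome 1, with 305887 and 139130 counts, while the 4 copies on other chromosomes had 12 and 4 counts.

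None of the 22 tRNA genes had a count in either library. On the plus strand these are mt-Tf, mt-Tv, mt-Tl1, mt-Ti, mt-Tm, mt-Tw, mt-Td, mt-Tk, mt-Tg, mt-Tr, mt-Th, mt-Ts2, mt-Tl2 and mt-Tt, and on the minus strand mt-Tq, mt-Ta, mt-Tn, mt-Tc, mt-Ty, mt-Ts1, mt-Te and mt-Tp. For a gene that can receive counts, a count of 0 allows up to 3 counts per library, a share of 3.18e-05% in replicate 1 and 3.06e-05% in replicate 2. The deposited effective length of all 22 was 0, and no count could be placed on them in this table. That limit therefore sets no bound on the tRNA levels. The shortest and the longest are shown to give the size of the molecules in question, mt-Ts2 with 59 bases (chrM:11613-11671) and mt-Tl1 with 75 (chrM:2676-2750), both on the plus strand of GRCm38.
mt-Ts2: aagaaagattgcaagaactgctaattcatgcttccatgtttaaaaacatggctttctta
mt-Tl1: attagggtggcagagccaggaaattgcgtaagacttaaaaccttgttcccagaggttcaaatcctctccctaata

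The effective lengths in the tables give the fragment lengths that were assumed for each library. Their mean was 163.6 bases in replicate 1 and 154.1 in replicate 2, with medians of 151 and 142 bases. The labels give a size range of 350 to 450 without a unit, and about 1% of the implied fragments reached 350 bases in either library. Transcripts of up to 114 bases in replicate 1 and 112 in replicate 2 had an effective length listed as 0, which covers every mitochondrial tRNA. The tRNAs were therefore not measured by these tables, and their level is not known from them.

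**Figure D1:**
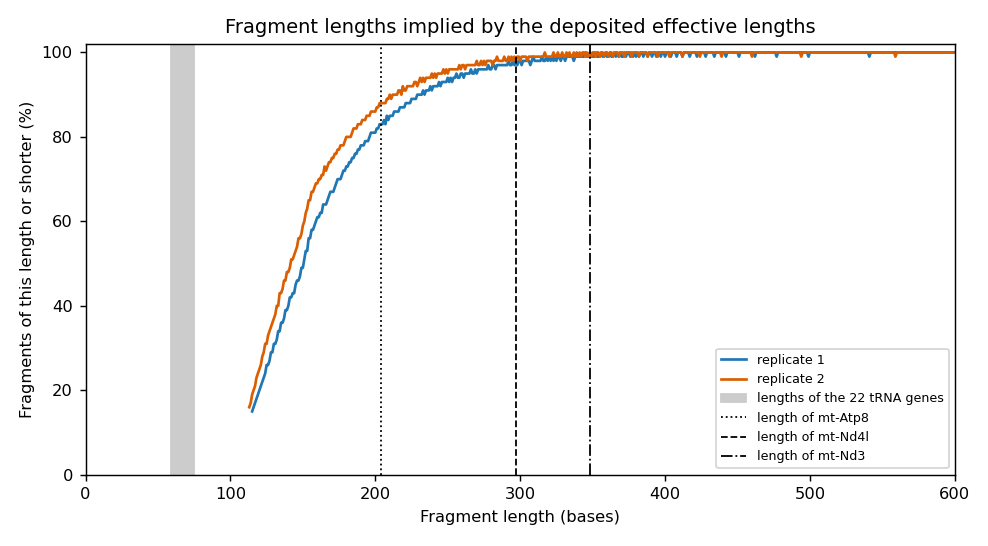
Cumulative share of fragments (y axis, percent) by fragment length (x axis, bases) as implied by the deposited effective lengths, for replicate 1 (blue) and replicate 2 (orange), with the lengths of the tRNA genes (grey band) and of the 3 shortest mRNAs (vertical lines). The tRNA genes, at 59 to 75 bases, lie below the shortest lengths with an effective length above 0, and 83% and 88% of the fragments were no longer than mt-Atp8.

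The same correction acted on the short mRNAs. Only 24.4% of the length of mt-Atp8 counted as effective in replicate 1 and 27.6% in replicate 2. For mt-Nd4l these shares were 45.7% and 48.7%, and for mt-Nd3 53.4% and 56.1%. The TPM of these 3 mRNAs therefore rests on the assumed fragment lengths more than that of the longer mRNAs. Per annotated kilobase, mt-Atp8 had 124127 counts in replicate 1 and ranked 9 among the 15 mRNAs and rRNAs, although its TPM ranked 1.

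The 2 rRNAs, which form the cores of the mitochondrial ribosome, are encoded upstream of all the plus-strand mRNAs. The small-subunit rRNA mt-Rnr1 (chrM:70-1024) stood at 16367 TPM in replicate 1 and fell to 5461 TPM in the other library. The large-subunit rRNA mt-Rnr2 (chrM:1094-2675) stood at 11404 and 4914 TPM. Both were lower in replicate 2, and mt-Rnr1 was above mt-Rnr2 in each library, by 1.44-fold and 1.11-fold. Neither has an annotated nuclear copy that passed the search, and the posterior SD of their counts was 0. The libraries are of polyA RNA, and how much of each rRNA they hold against the mRNAs in the tissue was not tested.

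Levels of the complex I mRNAs, which encode membrane subunits of NADH dehydrogenase, fell into a group without a counted nuclear copy and a group with one. Without one, mt-Nd1 (chrM:2751-3707) had 21351 and 4003 TPM, mt-Nd2 (chrM:3914-4951) 17351 and 2435 TPM, and mt-Nd5 (chrM:11742-13565) 7106 and 1042 TPM. All 3 were several times higher in replicate 1. The longest of the mRNAs, mt-Nd5, was the lowest of these 3 in both libraries.

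The subunit gene mt-Nd4 (chrM:10167-11544) had 16545 and 2901 TPM, and its copy Gm28439, which covers only its first 876 bases, was given 75 and 0 counts. Its upstream partner mt-Nd4l (chrM:9877-10173) was listed at 2049 and 51.1 TPM. With the counts of its copy Gm10222 added, mt-Nd4l came to 12766 and 2281 TPM. The copy took 83.9% of the pair's counts in replicate 1 and 97.7% in replicate 2, so most of the level listed for this sequence sat under a nuclear gene name.

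The complex I gene mt-Nd3 (chrM:9459-9806) was listed at 238.5 and 225.1 TPM, the lowest mRNA of replicate 1. Its copy Gm28438, which differs by the base shown above, was given 18149 and 6671 counts while mt-Nd3 kept 387 and 331. Summed, the pair came to 11417 and 4763 TPM. Summing raised the listed level of mt-Nd3 in both libraries, and among the 15 mRNAs and rRNAs the pair then ranked 12 in replicate 1 and 9 in replicate 2.

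The sole mRNA of the minus strand is mt-Nd6 (chrM:13552-14070), a complex I subunit gene with 1640 and 389.2 TPM. With copies summed mt-Nd6 was the lowest of the 13 mRNAs in both libraries. These are polyA libraries, and how far its listed level depends on its tail was not tested. The gene overlaps the end of mt-Nd5 by 14 bases on the other strand. The sources used here do not say whether strand was used in the counting, and without it reads of mt-Nd6 and of plus-strand RNA opposite to it cannot be told apart.

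Cytochrome b of complex III, the only mitochondrial product in that complex, is encoded by mt-Cytb (chrM:14145-15288). Its level was 24080 TPM in replicate 1, against 5330 TPM in the other library. No annotated copy of it passed the search, and it ranked 3 in replicate 1 and 4 in replicate 2 among the 15 mRNAs and rRNAs as deposited.

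The 3 mRNAs of complex IV encode the catalytic core of cytochrome c oxidase, and all have a copy on chromosome 1. As deposited, mt-Co1 (chrM:5328-6872) had 23971 and 7210 TPM, mt-Co2 (chrM:7013-7696) 26337 and 667.5 TPM, and mt-Co3 (chrM:8607-9390) 20958 and 1248 TPM. They were alike in replicate 1 and apart in replicate 2. With copies summed, mt-Co1 came to 27024 and 8779 TPM, mt-Co2 to 43101 and 12181 TPM, and mt-Co3 to 26184 and 10145 TPM. Summing thus brought the 3 closer together in replicate 2, between 8779 and 12181 TPM. In replicate 1 it set them further apart, between 26184 and 43101 TPM.

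The complex V mRNAs mt-Atp8 (chrM:7766-7969) and mt-Atp6 (chrM:7927-8607) encode membrane subunits of ATP synthase. As deposited, mt-Atp8 had 58143 and 11107 TPM, the highest of all 37 genes in each library, and mt-Atp6 had 19144 and 3537 TPM. With the copy Gm10925 summed, mt-Atp6 came to 48599 and 9885 TPM. Most of mt-Atp8 lies opposite a stretch of 233 bases between Gm28661 and Gm10925 for which no copy was annotated.

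**Figure D2:**
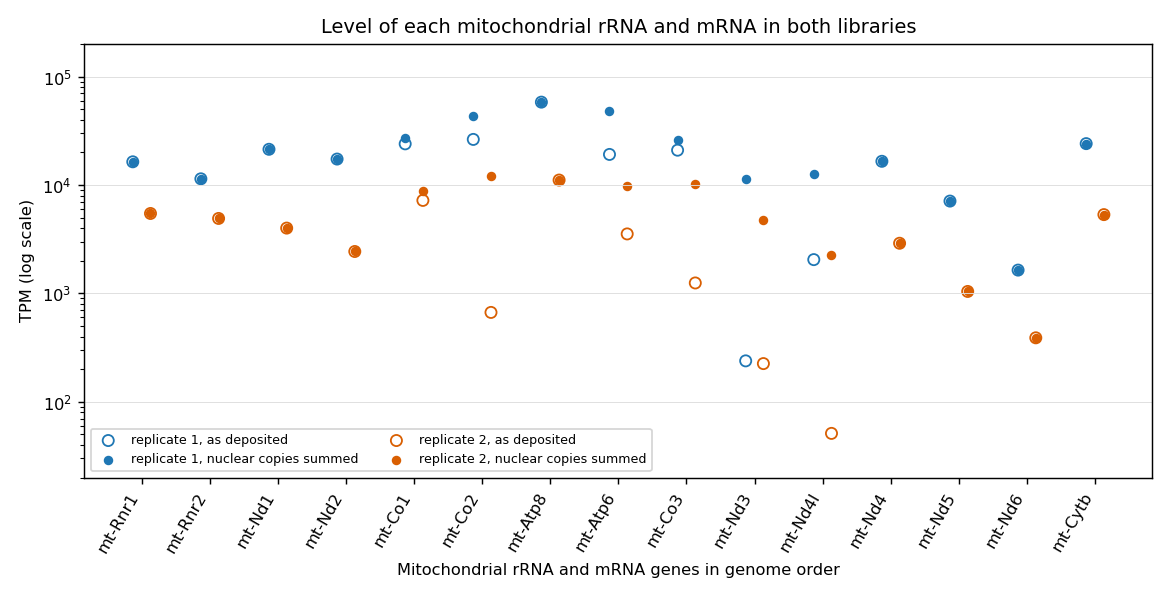
TPM (y axis, log scale) of the 15 mitochondrial rRNA and mRNA genes in genome order (x axis) in replicate 1 (blue) and replicate 2 (orange), as deposited (open circles) and with the counts of nuclear copies summed into the gene (filled circles). The open circles fall far below the filled ones for mt-Nd3 and mt-Nd4l in both libraries and for mt-Co2 and mt-Co3 in replicate 2, where mt-Co2 is at 667.5 as deposited and 12181 with copies.

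The division between gene and copy changed between the libraries for 2 pairs above all. Gm28661 took 38.9% of the counts of mt-Co2 and its copy in replicate 1 and 94.5% in replicate 2. Gm28437 took 28366 of the 142134 counts of the mt-Co3 pair in replicate 1 and 42289 of 48218, or 87.7%, in replicate 2. For mt-Atp6 and Gm10925 the copy's share was 60.6% and 64.2%.

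The quantifier's own posterior SD was large for these 3 pairs. The posterior mean put 38.4% of the mt-Co3 pair on the copy in replicate 1 and 66.7% in replicate 2, with an SD of 15.3% and 23.4% of the pair's counts. For the mt-Co2 pair it was 35.2% and 80.5%, with an SD of 10.6% and 13.5%. For the mt-Atp6 pair the SD was 11.5% and 5.57%. The SD was smaller for the other pairs. It was 2.69% and 3.49% for mt-Nd3, 1.92% and 2.08% for mt-Nd4l, 0.0974% and 0.144% for mt-Co1, and 0.0341% and 0.0130% for mt-Nd4. Gm29216 took 11.3% and 17.9% of the mt-Co1 pair and covers only bases 1063 to 1545 of that gene.

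**Figure D3:**
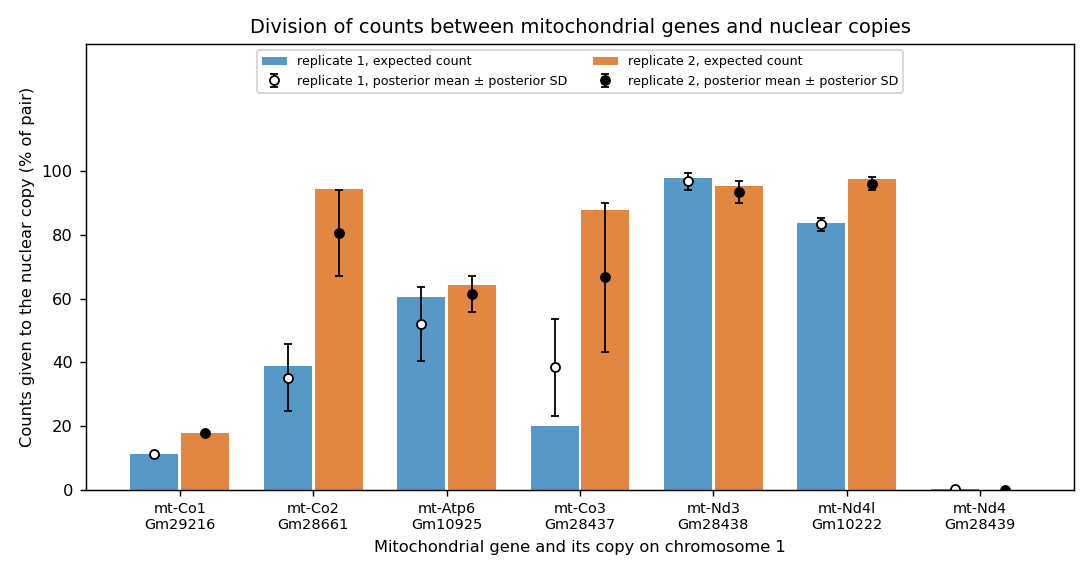
Share of each pair's counts given to the nuclear copy (y axis, percent) for the 7 mitochondrial genes with a copy on chromosome 1 (x axis), in replicate 1 (blue bars) and replicate 2 (orange bars); points with error bars are the deposited posterior mean ± posterior SD. The copy's share differs most between libraries for mt-Co2 (38.9% and 94.5%) and mt-Co3 (28366 of 142134 counts and 87.7%), and these points carry wide posterior SDs.

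Summing the copies narrowed the range of mRNA levels. As deposited, the highest mRNA was 243.8-fold above the lowest in replicate 1 and 217.3-fold in replicate 2. With copies summed the span was 35.5-fold and 31.3-fold, and 8.18-fold and 11.7-fold among the 12 plus-strand mRNAs alone. Across the 13 mRNAs, Spearman's rho of the TPM between the libraries was 0.74 as deposited and 0.90 with copies summed. These genes share a genome and a library, and the 12 on the plus strand also share a precursor, so they are not independent points.

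In the order of levels with copies summed, replicate 1 ran from mt-Atp8, mt-Atp6 and mt-Co2 at the top to mt-Nd3, mt-Nd5 and mt-Nd6 at the bottom. Replicate 2 ran from mt-Co2, mt-Atp8 and mt-Co3 to mt-Nd4l, mt-Nd5 and mt-Nd6. In both libraries mt-Nd5 and mt-Nd6 closed the order, and mt-Atp8, mt-Co2 and mt-Atp6 were among the 4 highest. Spearman's rho of plus-strand mRNA TPM with start position was -0.45 and -0.31 in the libraries (n = 12 genes), a description of genes in 1 precursor and nothing more.

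The 2 overlapping pairs came out near equal in level once copies were summed. As deposited, the ratio of mt-Nd4l to mt-Nd4 TPM was 0.124 in replicate 1 and 0.0176 in replicate 2, and with copies summed it was 0.771 and 0.786. The ratio of mt-Atp8 to mt-Atp6 went from 3.04 and 3.14 to 1.20 and 1.12. These ratios rest on the effective lengths of the short members: per annotated length, with copies summed, they were 0.399 and 0.431 for mt-Nd4l over mt-Nd4 and 0.384 and 0.401 for mt-Atp8 over mt-Atp6.

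Next, the libraries were compared gene by gene, to see whether mitochondrial RNAs moved together. Counts were scaled by TMM, which sets the bulk of genes equal, and each gene's counts were set against each other in an exact binomial test with Benjamini-Hochberg adjustment. A call needed an adjusted p below 0.05 together with a log2 ratio at least 1 away from 0. Of the 13 mRNAs, 12 were called lower in replicate 2, and of the 2 rRNAs 1 was called lower. Over all 12452 genes tested, 498 were called lower, which is 4.00%. The tRNAs had no counts and were not tested.

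The median log2 ratio of replicate 2 over replicate 1 was -2.14 for the 13 mRNAs, with single genes from -5.01 to 0.26. The median over all genes tested was -0.01. With copies summed the mRNA median was -1.94 and the range -2.55 to -0.92, again with 12 of 13 called lower, against 3.98% of 12445 genes. The 6 mRNAs with no copy on chromosome 1 were all called lower, from -2.55 to -1.77, and their values do not depend on the division with those copies.

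As deposited, the lowest ratios belonged to mt-Co2 (-5.01, 95% interval -5.06 to -4.95), mt-Nd4l (-4.94, -5.36 to -4.57) and mt-Co3 (-3.78, -3.82 to -3.74). With copies summed they came to -1.53, -2.12 and -1.08. From the deposited posterior mean counts they were -3.27, -4.23 and -1.97. All 3 were lower in replicate 2 in each reckoning, and the sizes differed by more than the counting intervals.

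The lowest ratios with copies summed were those of the complex I genes mt-Nd2 (-2.55, 95% interval -2.57 to -2.53), mt-Nd5 (-2.49, -2.52 to -2.47) and mt-Nd4 (-2.23, -2.25 to -2.21). Next to them stood mt-Nd1 at -2.13. In the middle of the list were mt-Atp6 at -2.00, mt-Atp8 at -1.94, mt-Cytb at -1.89 and the minus-strand mt-Nd6 at -1.77. The complex IV gene mt-Co1 came to -1.34.

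One mRNA was not called. As deposited, mt-Nd3 had a log2 ratio of 0.26 (95% interval 0.04 to 0.47, adjusted p = 0.0519 in the exact binomial test). With its copy summed it was -0.92 (-0.96 to -0.88), and with library totals in place of TMM -0.28, so its direction turned on both choices. Its copy Gm28438 had a ratio of -0.96.

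The rRNA ratios were closer to 0 than those of most mRNAs. The ratio of mt-Rnr1 was -1.30 (95% interval -1.32 to -1.28), which was called, and that of mt-Rnr2 was -0.94 (-0.95 to -0.92), which missed the size threshold. Scaled by library totals or by the totals of the other genes, mt-Rnr2 was called as well, at -1.47 and -1.10. As a share of mitochondrial counts with copies summed, rRNA took 12.9% of replicate 1 and 19.1% of replicate 2, with exact 95% intervals of 12.88% to 12.98% and 18.99% to 19.22%.

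**Figure D4:**
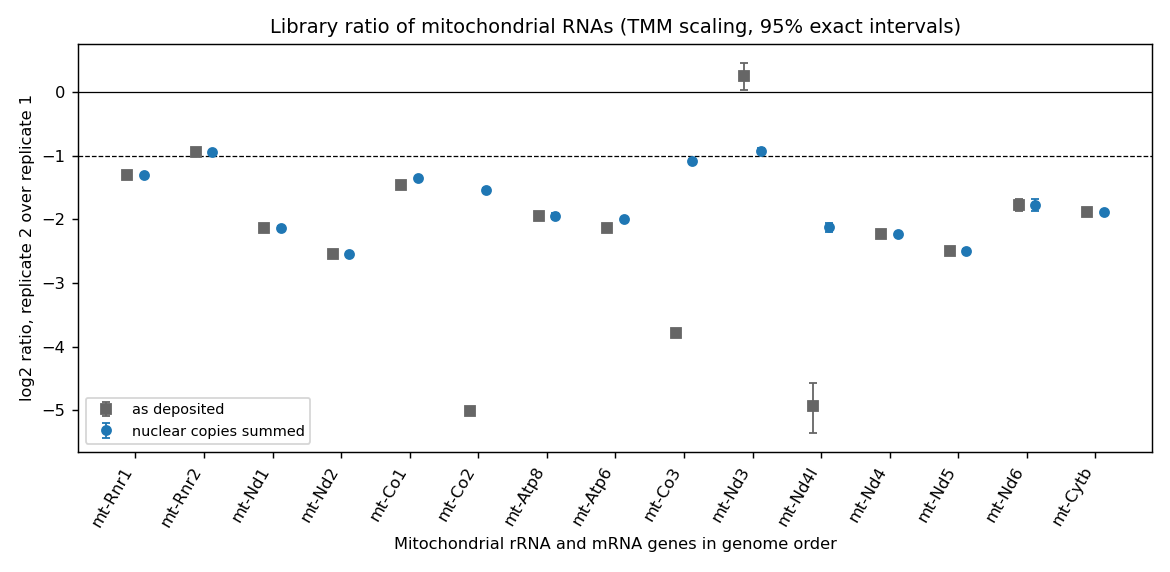
Log2 ratio of replicate 2 over replicate 1 (y axis) of the 15 mitochondrial rRNA and mRNA genes in genome order (x axis), as deposited (grey squares) and with nuclear copies summed (blue circles), with exact 95% counting intervals; the solid line is 0 and the dashed line the call threshold of -1. With copies summed all 15 lie between -2.55 and -0.92, while as deposited mt-Co2 and mt-Nd4l lie near -5 and mt-Nd3 above 0.

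Shares by respiratory complex depended on the nuclear copies, and for complexes III, IV and V the direction of the difference between the libraries turned with them. Among deposited mRNA TPM, the 3 complex IV mRNAs took 29.8% in replicate 1 and 22.7% in replicate 2, but with copies summed they took 30.5% and 41.3%. The 2 complex V mRNAs took 32.3% and 36.5% as deposited and 33.9% and 27.9% with copies summed. With copies summed, mt-Atp8 made up 58141 of the 106740 complex V TPM in replicate 1 and 11107 of 20992 in replicate 2. The complex V shares therefore also rest on the fragment lengths assumed for this short mRNA. The share of the complex III gene mt-Cytb was 10.1% and 13.3% as deposited and 7.64% and 7.08% with copies summed. The 7 complex I mRNAs took 27.7% and 27.5% as deposited and 28.0% and 23.7% with copies summed. These shares have no replicate beyond the 2 libraries, and the summed complex IV share includes the 3 copies on chromosome 1. That all copy counts belong to the mitochondrial genes was not tested.

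In the expected counts, the copies themselves did not all follow the genes. Gm10925 was called lower in replicate 2 at -1.92, with mt-Atp6 at -2.14, and Gm10222 was called lower at -1.90, with mt-Nd4l far from it at -4.94. Gm28439, with 75 and 0 counts, was called lower at -6.76. Gm28661 at -0.25 and Gm29216 at -0.68 were not called, and Gm28437 was called higher, at 1.06. The expected count of Gm28437 rose from 28366 to 42289 while that of mt-Co3 fell from 113768 to 5929. The posterior mean count of Gm28437 fell instead, from 54586 to 32140, with posterior SDs of 21737 and 11284. Its direction therefore turned on how the pair's counts were divided.

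The exact binomial test holds counting error only, and 2 technical libraries give no estimate of any other error. When edgeR's exact test was given a dispersion of 0.1, 3 of the 13 mRNAs were called lower (mt-Co2, mt-Co3 and mt-Nd4l). With copies summed 0 were. Among all genes tested, 14 of 12452 were called lower as deposited and 10 of 12445 with copies summed. With a dispersion of 0.01, 12 of the 13 mRNAs were called lower both ways, against 365 of 12452 and 362 of 12445 genes.

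The nuclear genes that serve the mitochondrial genome were compared in the same fit, from lists by role. Of 17 tested genes for transcription and DNA maintenance, 1 was called higher in replicate 2 and 0 lower, with a median log2 ratio of 0.02. Under library totals 0 were higher and 1 lower (Tfb2m), with a median of -0.52. Called among all genes under TMM were 8.31% higher and 4.00% lower, and under library totals 342 higher and 2603 lower of 12452. The list gene called under TMM was Dguok, a mitochondrial deoxyguanosine kinase, at 1.22. Polrmt, the mitochondrial RNA polymerase, stood at 12.5 and 14.8 TPM (log2 ratio 0.70), the single-stranded DNA binding protein gene Ssbp1 at 123 and 78 counts (-0.17) and Mterf3 at 15.9 and 8.69 TPM (-0.43), all 3 not called.

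Of 35 tested genes for RNA processing, modification and decay, 4 were called higher and 0 lower, with a median of 0.28. For all genes tested the shares were 8.31% higher and 4.00% lower. Under library totals 1 was higher (Mrm1) and 4 were lower (Trmt10c, Trnt1, Rexo2 and Nsun3), with a median of -0.26. All 12452 genes then gave 342 higher and 2603 lower, with a median of -0.55. The 4 called higher under TMM were the tRNA modification gene Gtpbp3 (1.32), the pseudouridine synthase gene Trub2 (1.20), the rRNA methyltransferase gene Mrm1 (1.54) and Ptcd2 (1.27), each with 70 counts or fewer in either library. The most abundant of the list were not called. They were Fastk (35.2 and 32.9 TPM), the oligoribonuclease gene Rexo2 (34.8 and 15.4 TPM) and Hsd17b10 (19.1 and 17.0 TPM), a subunit of mitochondrial RNase P.

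Among 12 tested translation factors 1 was called higher, the elongation factor gene Tsfm (log2 ratio 2.93, with 8 and 46 counts), and 0 lower, also under library totals. The median was -0.01 under TMM and -0.55 under library totals. All genes gave 8.31% higher and 4.00% lower under TMM, and 342 higher and 2603 lower of 12452 under library totals. Tufm, for the elongation factor that Tsfm recharges, had 5.57 and 8.04 TPM (0.81) and the initiation factor gene Mtif2 5.09 and 4.28 TPM (-0.37), and neither was called.

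Of 21 tested aminoacyl-tRNA synthetase and amidotransferase genes, which charge the 22 tRNAs not measured here, 4 were called higher and 1 lower. Their median was 0.25, and 8.31% of all genes tested were called higher and 4.00% lower. Under library totals 2 were higher (Aars2 and Lars2) and 2 lower (Mars2 and Gatc), with a median of -0.28. That scaling called 342 of all 12452 genes higher and 2603 lower. Higher under TMM were the genes for the alanine (Aars2, 1.63), cysteine (Cars2, 1.13), phenylalanine (Fars2, 1.63) and leucine (Lars2, 3.29) enzymes. Lars2 stood at 2217 and 17903 TPM, far from the other members, of which the next, Gars and Kars, had 14.9 and 11.1 TPM and 12.5 and 11.4 TPM. The share of Lars2 rose beside that of Gm42418, as given above, and it is 1 of the 3 genes left out of the total of the other genes. Gatc, an amidotransferase subunit gene, was called lower at -1.46.

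The nuclear-encoded partners of the same respiratory complexes did not move with the mitochondrial mRNAs. Of 34 tested, 0 were called lower and 9 higher, with a median of 0.62. Over all genes tested, 4.00% were called lower and 8.31% higher. The 9 were Ndufs8 (1.15) and Ndufv1 (1.11) of complex I, Uqcrfs1 (1.03) and Uqcrq (1.85) of complex III, Cox4i1 (1.24) and Cox5a (1.82) of complex IV, and Atp5d (1.11), Atp5e (1.47) and Atp5g3 (1.04) of complex V. The most abundant members, Atp5b with 119.4 and 171.1 TPM, Atp5h with 139.3 and 83.5 TPM and Cox6b1 with 103.0 and 81.8 TPM, were not called.

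Levels also set the 2 genomes apart. Median TPM was 34.0 in replicate 1 and 46.9 in replicate 2 over the nuclear partners, against 21351 and 4763 over the 13 mitochondrial mRNAs with copies summed. The nuclear medians depend on the scaling. Library totals moved the median of all genes by -0.54, and under them the partners' median was 0.09. Of the partners, 2 were then called higher (Uqcrq and Cox5a) and 1 lower (Uqcrb), against 342 and 2603 of all 12452 genes. Of all calls, 67.5% were higher under TMM, 11.6% under library totals and 45.6% under the totals of the other genes. The 12 calls of mitochondrial mRNAs were made under each of these scalings.

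**Figure D5:**
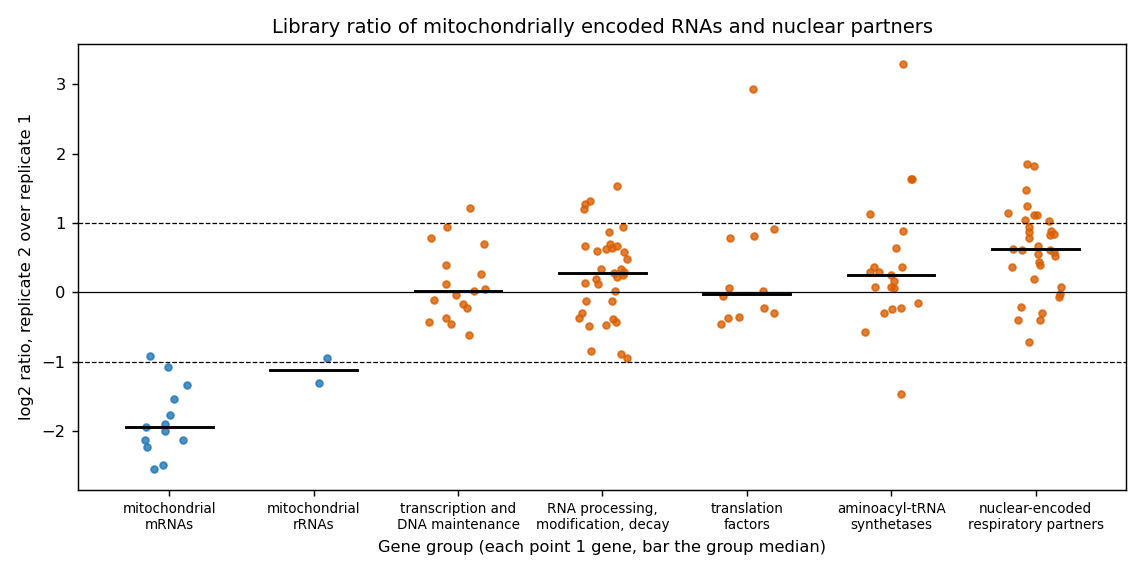
Log2 ratio of replicate 2 over replicate 1 under TMM (y axis) for mitochondrial mRNAs and rRNAs with nuclear copies summed (blue) and for the tested genes of 5 lists of nuclear genes (orange), each point 1 gene and each bar the group median; dashed lines mark the call thresholds of 1 and -1. The mitochondrial mRNAs lie from -2.55 to -0.92 with a median of -1.94, and the nuclear respiratory partners have a median of 0.62.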

How the data were processed

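The values are polyA RNA-seq tables of 2 technical replicate libraries of 1 mouse pancreas. Per the deposited README files the authors used mm10 and GENCODE M4. Aligner and quantifier: not given in the sources used here. The authors' tables hold an expected count per gene, a posterior mean count with its SD, an effective length, TPM and FPKM, per the file headers. Of 69691 rows, 43346 name genes, and the other 26345, which held no counts, were left out. Expected counts summed to 9441559 and 9797569 and were rounded. Deposited FPKM and posterior mean values served as alternatives. GENCODE M21 on GRCm38, which is the same assembly as mm10, gave symbols, positions and sequences, and 42462 identifiers matched. Intervals of genes are those of the whole annotated transcript, 1 per mitochondrial gene.

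A search with BLAST+ 2.17.0 took as nuclear copies the annotated genes with 90% of their length at 95% identity, and their counts were summed into the mitochondrial gene as an alternative. Summed TPM is the summed count over the mitochondrial gene's effective length. Fragment lengths were read from how effective length grows with transcript length. Genes averaging 10 counts or more entered a two-sided exact binomial test on TMM-scaled totals (edgeR 4.0.16, R 4.3.3). P-values were adjusted by Benjamini-Hochberg over all genes tested, and 0.5 was added to both counts for ratios. A quasi-likelihood fit was not possible, as 1 library per side leaves no residual degrees of freedom. Alternatives used library totals, totals of other genes, DESeq2 1.42.0 size factors, other count filters, pseudocounts and units, and exact tests of edgeR at preset dispersions of 0.01 and 0.1. The exact tests with copies summed were added after seeing the data. The genes named are all 37 members, nuclear copies with a mean of 100 counts or more, and of each nuclear list the 3 most abundant and every called member. The copy Gm28439, the genes Gm42418 and Gm26917, the genes called only under library totals and the markers were named after their values were seen. The members and lists were chosen with earlier results of these data known. The test was tried on simulated counts that held counting error only, so the trial does not cover other differences between libraries. The scripts ran in Python 3.11.15 (scipy 1.17.1, pandas 2.3.3, numpy 2.4.6, matplotlib 3.10.9).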

Additional observations from a re-analysis of the deposited data

How the results depend on the processing

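The median log2 ratio of the 13 mitochondrial mRNAs, -2.14 with TMM, was -2.68 with library totals, -2.30 with totals of the other genes, -2.44 from deposited TPM, -2.70 from deposited FPKM and -1.94 with nuclear copies at 95% or 99% identity summed. The number of mRNAs called lower, 12, held except in edgeR's exact test at a dispersion of 0.1, which called 3, and 0 with copies summed. For mt-Nd3 the ratio of 0.26 turned to -0.28 with library totals and -0.92 with copies at 95% or 99% identity summed. Of 135 single-gene alternatives, 130 kept direction and call, 3 reversed and 2 gained a call. Spearman's rho of mRNA TPM between libraries, 0.74, was 0.73 per annotated length, 0.80 from posterior mean TPM and 0.90 with copies summed. The mitochondrial share of counts ran from 3.17% to 17.6% when either library was left out, and the number of tRNAs with a count stayed at 0 to 0. No paired analysis was possible because the libraries form 1 group. Depth did not limit the rRNAs and most mRNAs. As deposited, mt-Nd4l in replicate 2 rested on 56 counts, out of 2484 divided between it and its copy Gm10222.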
